A study of Homo sapiens with 18 samples.

Results

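Genes of mitosis were mostly higher and genes of the extracellular matrix, of growth factor ligands and their binding proteins and of the immediate early response were mostly lower in untransfected glioblastoma cells at 24 h than at 6 h. The comparison rests on 4 of the 18 arrays of a study of the kinase MPS1: the 2 arrays labelled as untransfected at 24 h and the 2 labelled as untransfected at 6 h, chosen by their titles alone. The cells were U251, an established human glioblastoma line, and each array measured the total RNA of one sample with short oligonucleotide probes. The other arrays, also 2 per group in 9 groups, were untransfected cells at 48 h and, at 6, 24 and 48 h, cells transfected with siNeg, a non-targeting control siRNA, or with siMPS1, which targets MPS1. The series counts time from transfection, and the labels give no treatment for the untransfected cells, so their zero time, seeding and medium changes are unknown here. No label states whether paired arrays were separate cultures, and the p-values then measure only the spread between these samples, which may be technical. U251 is 1 cell line, and the arrays hold bulk RNA, in which fewer cells in a given state and less RNA per cell cannot be told apart.

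A dividing cell copies its DNA in S phase, grows through G2 and separates its chromosomes in mitosis. Many genes needed late in this cycle, such as those of cyclin B, the mitotic kinases and the spindle motors, are held silent early in the cycle. They are switched on together in G2 through the MuvB-based DREAM, MYBL2 and FOXM1 complexes. These complexes work through a promoter element named the cell cycle homology region, and the CCAAT box is another element of such promoters. Immediate early genes respond within minutes to hours to growth factors, YAP and SRF tie the actin cytoskeleton to transcription, and the unfolded protein response adjusts the folding capacity of the endoplasmic reticulum.

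Values are given as log2 of the signal plus 3, called the log2 level here, and a change is the mean log2 level at 24 h minus that at 6 h, given with its standard error. A gene was called when its adjusted p (limma, Benjamini-Hochberg over all genes tested) was under 0.05. Of 7828 genes tested, 3372 were called, or 43.1%, of which 2125 (27.1% of those tested) were higher and 1247 (15.9%) were lower at 24 h. Both arrays of 24 h lay above both of 6 h in 3523 genes (45%) and below both in 2192 (28%). In 331 of the higher and 226 of the lower genes the change was also 2-fold or more. The median change over all genes was 0.121, and the direction of small changes depends on how the arrays are scaled: with each array centred on its median, which moved that median to -0.0405, 1302 genes were higher and 1923 lower. Quantile normalization gave 1793 higher and 1429 lower.

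**Figure D1:**
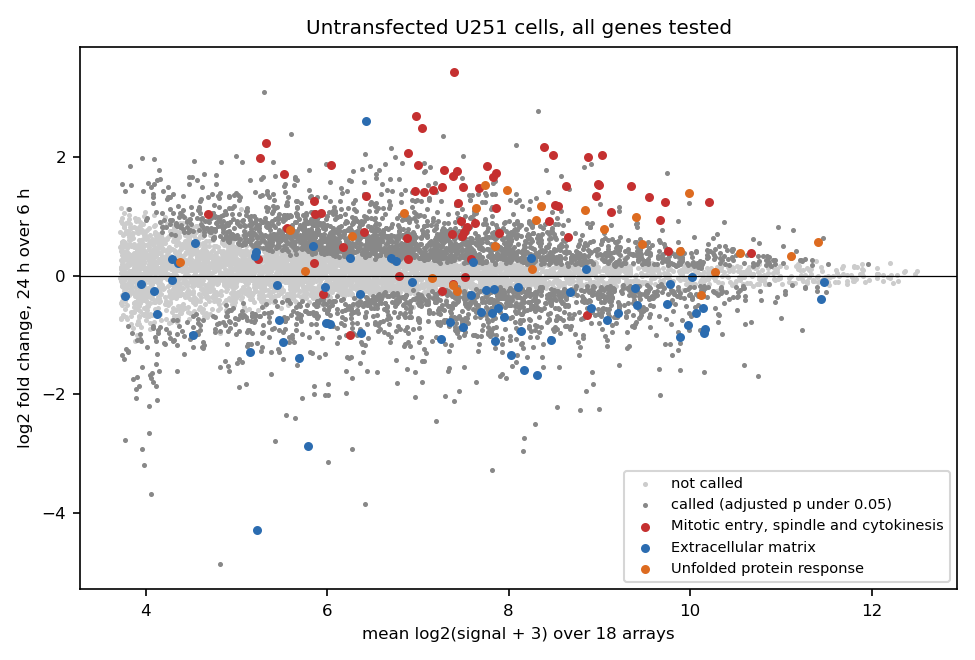
Change from 6 h to 24 h in untransfected cells (vertical axis, log2 fold change) against the mean log2 level over 18 arrays (horizontal axis), 1 point per gene for 7828 genes. Most genes of the mitotic list (red) lie above 0 and most genes of the extracellular matrix list (blue) lie below it, while MMP1 is the matrix list gene far above 0 at 2.60.

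The promoters of 6 genes are shown because they belong to the mitotic genes with the smallest p, whose levels moved together. They are the 250 bases before the annotated transcript start on the gene's strand, from RefSeq, build GRCh38.p14: CCNB1 (chr5:69166900-69167149, plus strand), DLGAP5 (chr14:55191586-55191835, minus strand), CCNB2 (chr15:59104896-59105145, plus strand), CKS1B (chr1:154974431-154974680, plus strand), CDC20 (chr1:43358731-43358980, plus strand) and KIF20A (chr5:138178862-138179111, plus strand). Capitals mark the CCAAT box (CCAAT, or ATTGG on the opposite strand) and a form of the core of the cell cycle homology region (TTTGAA, or TTCAAA on the opposite strand).
CCNB1: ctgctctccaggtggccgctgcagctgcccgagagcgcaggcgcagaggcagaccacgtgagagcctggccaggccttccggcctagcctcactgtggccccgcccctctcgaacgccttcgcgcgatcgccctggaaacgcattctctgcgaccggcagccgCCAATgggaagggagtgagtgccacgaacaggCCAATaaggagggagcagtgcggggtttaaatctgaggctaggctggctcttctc
DLGAP5: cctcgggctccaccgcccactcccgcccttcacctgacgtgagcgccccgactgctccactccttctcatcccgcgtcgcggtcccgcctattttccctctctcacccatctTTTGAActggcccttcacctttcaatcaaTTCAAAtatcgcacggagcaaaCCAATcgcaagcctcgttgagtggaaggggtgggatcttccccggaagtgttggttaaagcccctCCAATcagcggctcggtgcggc
CCNB2: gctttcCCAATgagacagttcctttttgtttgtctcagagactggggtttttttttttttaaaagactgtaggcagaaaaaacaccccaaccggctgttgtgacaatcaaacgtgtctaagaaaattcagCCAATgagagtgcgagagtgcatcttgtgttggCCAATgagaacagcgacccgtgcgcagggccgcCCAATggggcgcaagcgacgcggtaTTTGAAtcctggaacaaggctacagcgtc
CKS1B: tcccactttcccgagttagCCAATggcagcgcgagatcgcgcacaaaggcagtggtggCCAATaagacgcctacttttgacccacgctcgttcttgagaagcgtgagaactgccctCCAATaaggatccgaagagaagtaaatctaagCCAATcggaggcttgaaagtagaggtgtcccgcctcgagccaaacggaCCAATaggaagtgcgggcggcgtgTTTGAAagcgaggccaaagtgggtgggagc
CDC20: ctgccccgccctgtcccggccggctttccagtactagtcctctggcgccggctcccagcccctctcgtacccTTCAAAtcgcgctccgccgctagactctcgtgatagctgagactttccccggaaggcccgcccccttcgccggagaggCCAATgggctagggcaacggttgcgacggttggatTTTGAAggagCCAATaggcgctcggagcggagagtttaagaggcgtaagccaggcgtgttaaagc
KIF20A: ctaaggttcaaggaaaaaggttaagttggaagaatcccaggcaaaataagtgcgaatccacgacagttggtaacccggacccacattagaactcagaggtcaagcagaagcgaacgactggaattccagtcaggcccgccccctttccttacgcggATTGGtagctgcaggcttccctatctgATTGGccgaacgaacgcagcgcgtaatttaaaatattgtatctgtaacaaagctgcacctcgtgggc
Both motifs were searched on both strands of the 250 bases before the start of the 6545 tested genes that had a promoter in the table. The letters TTTGAA were found in 28 of the 51 mitotic genes called higher (54.9%) and in 541 of the 6545 promoters (8.27%). CCAAT was found in 41 of those 51 (80.4%) against 36.3% of all promoters, and both letters together in 26 of 51 (51%) against 3.41%. CCNB2 and CKS1B carry TTTGAA 29 and 30 bases before the start with a CCAAT box 54 bases before it in each. CCNB1 and KIF20A hold 2 CCAAT boxes each and no TTTGAA in this window, which says only that these letters are not in these bases. Other forms of the cell cycle homology region were not searched, so the shares above count this form alone. An E2F motif (TTTCCCGC, TTTGGCGC, TTTCGCGC or TTTGCCGC) was found in 2 of the 51 (3.92%), beside 4.77% of all promoters. These matches describe the sequence and do not show that a factor was bound.

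Of 70 tested members of a list of genes of mitotic entry, the spindle and cytokinesis, 59 rose and 2 fell, with a median change of 1.23, beside 27.1% higher and a median of 0.121 over all genes. CCNB1, the cyclin that activates CDK1 at mitotic entry, had log2 levels of 7.65 and 7.69 at 6 h and of 9.65 and 9.68 at 24 h. Its change of 1.99 (SE 0.07, adjusted p = 5.23e-13) is a 3.98-fold rise of the signal plus 3, and the arrays of the 2 times lie far apart. CCNB2, another B-type cyclin, went from 7.44 and 7.48 to 9.45 and 9.53. Among the 18 tested cyclins, kinases and phosphatases of mitotic entry, 15 rose and 2 fell. AURKA, a kinase of centrosome maturation, was at 7.06 and 7.04 and then at 9.23 and 9.19 (change 2.16, SE 0.08, adjusted p = 1.02e-12). PLK1, the polo-like kinase that drives mitotic entry and exit, was much dimmer, at 4.16 and 3.87 and then at 6.33 and 6.16 (change 2.23, SE 0.18). The 2 that fell have roles before mitosis or against it. WEE1, the kinase that restrains CDK1, went from 9.50 and 9.61 to 8.90 and 8.88 (change -0.66, SE 0.12). CDC25A, a phosphatase that also acts at the start of S phase, went from 6.71 and 6.49 to 5.54 and 5.65 (change -1.002, SE 0.23). The other probe set of CDC25A changed by -0.282 and was not called.

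Spindle motors and spindle assembly genes moved together, with 22 of 23 called higher, none lower and a median change of 1.44. HMMR, which codes for a spindle-associated hyaluronan receptor, showed the largest rise of all genes tested, from 5.04 and 4.97 to 8.58 and 8.29. Its change was 3.44 (SE 0.18, adjusted p = 7.22e-11), a 10.8-fold difference. KIF20A, a kinesin of the central spindle, went from 5.24 and 5.43 to 8.06 and 7.97, and DLGAP5, a microtubule-binding spindle protein, from 5.50 and 5.44 to 8.02 and 7.90. These 3 genes had no array at 24 h near the levels of 6 h. Chromosome condensation and passenger complex genes rose in 11 of 12 cases, anaphase and mitotic exit genes in 5 of 10 and cytokinesis genes in 4 of 4, with none lower. CDC20, the activator of the anaphase-promoting complex, rose from 7.72 and 7.60 to 9.64 and 9.75.

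The spindle checkpoint delays anaphase until kinetochores, the sites where chromosomes bind microtubules, are attached. Of 30 tested genes of a list of both, 22 were higher (73.3%) and 3 lower (10%), beside 27.1% and 15.9% of all genes. The median change was 0.64. The 11 checkpoint kinases and effectors had 7 higher and 2 lower (median 0.52), and the 19 kinetochore and centromere genes 15 higher and 1 lower (median 0.78). CENPF, a large kinetochore protein, rose from 6.88 and 6.67 to 8.99 and 8.97 (change 2.21, SE 0.09), and CENPE, a kinetochore kinesin, from 5.95 and 5.90 to 7.83 and 7.81. BUB1, a checkpoint kinase, went from 6.02 and 6.01 to 7.77 and 7.79 (change 1.76, SE 0.10), and NDC80, which binds microtubules, from 5.61 and 5.46 to 7.48 and 7.39. TTK, the gene of MPS1 itself and the target of the siRNA in other arrays, was at 5.34 and 5.72 at 6 h and at 7.13 and 6.81 at 24 h in these untransfected cells (change 1.44, adjusted p = 1.83e-05). The list was not uniform: SPDL1, which recruits dynein to kinetochores, fell by 0.47 on the log2 scale. MAD1L1, the partner of the checkpoint protein MAD2, fell by 0.39 and MIS12, a kinetochore gene, by 0.34. In each of these 3 genes both arrays at 24 h lay below both at 6 h.

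**Figure D2:**
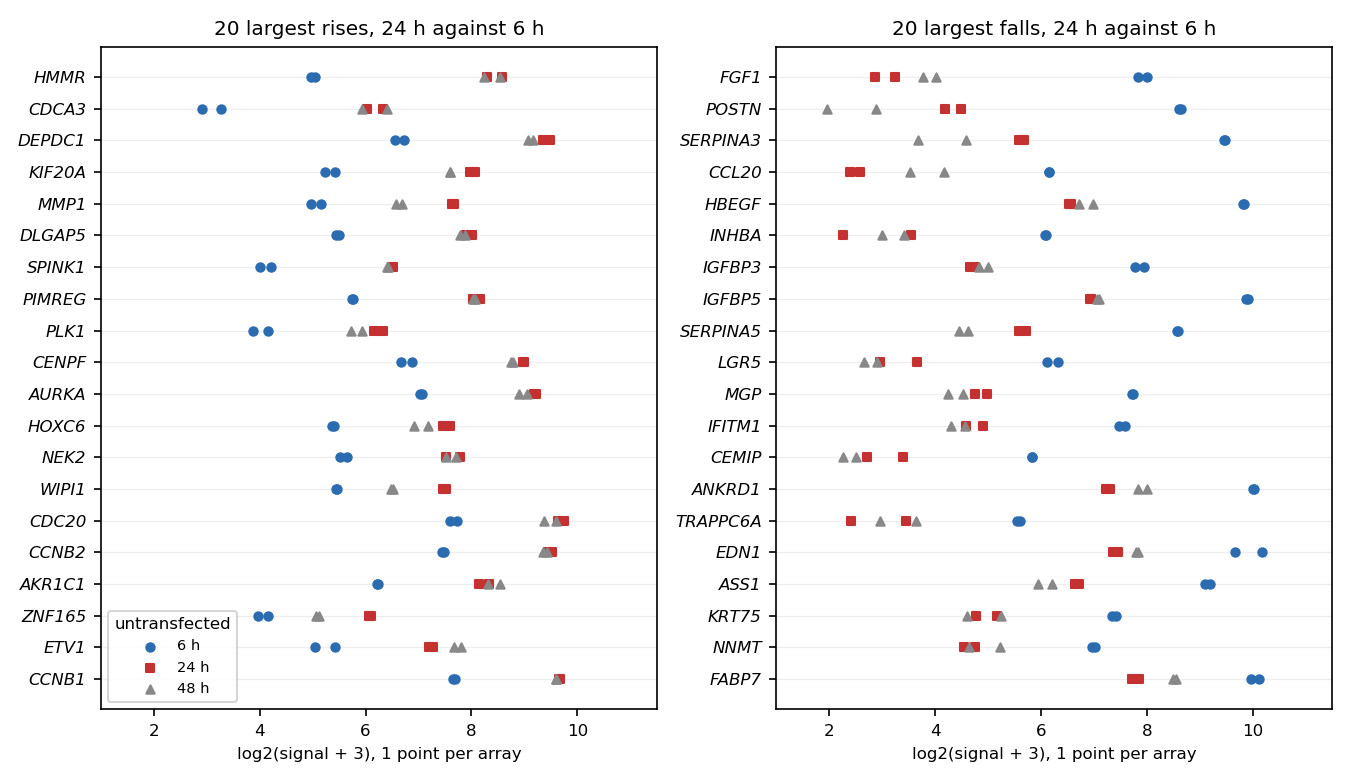
Log2 level (horizontal axis, signal plus 3) of the 20 genes with the largest rise (left) and the 20 with the largest fall (right), 1 point per array, for untransfected cells at 6 h (blue circles), 24 h (red squares) and 48 h (grey triangles). By the rule that named these genes the arrays of 6 and 24 h do not overlap, and most 48 h arrays lie closer to 24 h than to 6 h.

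Genes of DNA replication did not follow the mitotic genes. Of 66 tested members of a replication and G1/S list, 15 were higher (22.7%) and 22 lower (33.3%), beside 27.1% and 15.9% of all genes. The median change was -0.0456. With median centring 7 were higher and 28 lower (median -0.207). By role, 13 of 23 origin licensing and firing genes fell and 4 rose, and of 10 G1 cyclins and their regulators 3 fell and none rose. Among 26 genes of polymerases, clamp and fork 7 rose (26.9%) and 6 fell (23.1%). Among 7 nucleotide supply genes 4 rose and none fell, but RRM1 and RRM2 of these 4 were not called with median centring. MCM6, a subunit of the replicative helicase, went from 8.71 and 8.93 to 7.83 and 7.71 (change -1.05, SE 0.10, adjusted p = 1.52e-07). MCM2 and MCM3, subunits of the same helicase, fell by 0.65 and 0.74 on the log2 scale, and PCNA, the sliding clamp, went from 9.89 and 9.88 to 9.23 and 9.24. UNG, which removes uracil from DNA, went from 8.59 and 8.67 to 7.82 and 7.68. Against this direction, TK1, thymidine kinase, rose from 6.49 and 6.57 to 7.69 and 7.21, DTYMK, thymidylate kinase, from 6.94 and 6.90 to 7.54 and 7.71, and GINS4, of the helicase-associated GINS complex, from 5.73 and 5.72 to 6.74 and 6.89. The other 12 that rose changed by 0.22 to 0.80 and were POLA2, POLD2, RPA1, RPA3, ORC3, DBF4, RRM2, TIMELESS, RFC5, ORC6, RRM1 and PRIM1, and the last 2 and TIMELESS, RFC5 and ORC6 were no longer called when a single array was left out (highest adjusted p 0.141, for PRIM1 without array 1 of 6 h). DBF4, RPA3, RRM2, TIMELESS, RFC5, ORC6, RRM1 and PRIM1 were not called with median centring. CCND1, the G1 cyclin D1, fell by 0.46, but its other probe set changed by 0.0385 and was not called. The E2F letters were found in 6 of the 16 replication genes that fell and had a promoter in the table (37.5%), against 4.77% of all, and TTTGAA in 0 of 16. Of the 13 replication genes that rose and had a promoter, 2 held E2F letters (15.4%) and 1 held TTTGAA (7.69%). MCM3 and PCNA each hold TTTCCCGC, and MCM6 holds TTTGGCGC at 2 places, each overlapped by TTTCGCGC on the opposite strand.

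DNA repair and cell cycle inhibitor genes were mixed. Of 31 DNA repair genes 12 rose (38.7%) and 3 fell (9.68%), beside 27.1% higher and 15.9% lower over all genes. With median centring 8 rose and 6 fell. TP53BP1, which marks double-strand breaks, rose from 6.33 and 6.63 to 8.05 and 7.98 (change 1.53, SE 0.11), and its other probe set changed by 0.493. MSH6, a mismatch sensor, fell from 8.88 and 8.89 to 8.25 and 8.30. TOPBP1, a replication stress checkpoint protein, fell by 0.58, and PALB2, a partner of BRCA2, fell by 0.46 but was not called without array 2 of 24 h (adjusted p = 0.201). Of 25 CDK inhibitors and p53 targets 8 rose (32%) and 6 fell (24%), beside 27.1% and 15.9% of all genes. The sign of their median, 0.148, turned with median centring (-0.0136). CDKN1B, the CDK inhibitor p27, rose from 6.66 and 6.53 to 7.40 and 7.47, CDKN3, a CDK phosphatase, rose by 1.25 and CCNG1, a p53 target, by 1.38. PLK2, also a p53 target, went the other way, from 10.02 and 9.998 to 8.27 and 8.10 (change -1.82, SE 0.07, adjusted p = 1.28e-12).

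**Figure D3:**
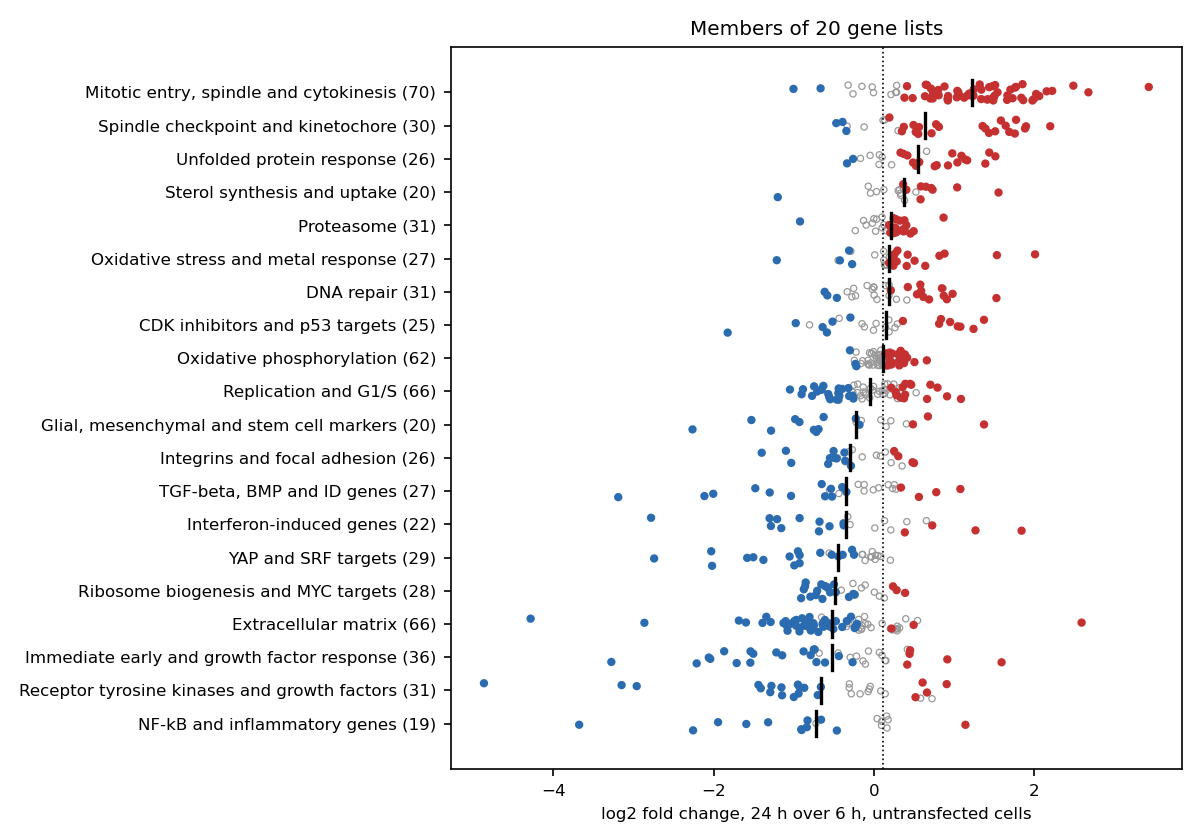
Change from 6 h to 24 h in untransfected cells (horizontal axis, log2 fold change) of every tested member of 20 gene lists (rows, with the number tested in brackets), ordered by median. Filled points are called genes (red higher, blue lower), open points are not called, black bars are list medians, and the dotted line is the median of all genes at 0.121. The mitotic list has the highest median and the list of NF-kB and inflammatory genes the lowest.

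The early response genes were lower at 24 h. Of 36 tested immediate early and growth factor response genes 19 fell and 5 rose, with a median change of -0.53, beside 15.9% lower over all genes. HBEGF, an EGF receptor ligand, went from 9.83 and 9.82 to 6.57 and 6.53, a 9.69-fold difference (change -3.28, SE 0.09, adjusted p = 1.35e-14). LIF, a cytokine of the interleukin 6 family, went from 9.92 and 10.10 to 7.83 and 7.77, and EGR1, an immediate early transcription factor, from 8.14 and 8.26 to 6.11 and 6.21. DUSP1, a MAP kinase phosphatase, fell by 1.54 and SGK1, a serum-induced kinase, fell by 1.504. In all 5 genes both arrays of 24 h were below both of 6 h by more than 1 log2 unit. The 5 that rose were ETV5, a MAP kinase target, with a change of 1.597 (SE 0.12), PHLDA1 with 0.92, IER3 and FOSL1 with 0.45 each and SPRED2 with 0.42, the last not called with median centring.

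Inflammatory genes fell in 11 of 19 cases (57.9%) and 1 rose (5.3%), beside 15.9% lower and 27.1% higher over all genes. Their median change was -0.72. CCL20, a chemokine, went from 6.16 and 6.16 to 2.39 and 2.57, which is near the lower end of the scale (change -3.68, SE 0.29). CCL2, a monocyte chemokine, fell from 10.36 and 10.40 to 8.13 and 8.12, and TNFAIP3, a feedback inhibitor of NF-kB, from 9.012 and 9.004 to 7.05 and 7.08. IL11, a cytokine, remained bright, at 11.17 and 11.17 and then at 9.62 and 9.54. NFKBIA, the NF-kB inhibitor, fell by 0.90, and TNFAIP2 was the member that rose (change 1.15, SE 0.11). Of 22 interferon-induced genes 11 fell (50%) and 4 rose (18.2%). IFITM1, an antiviral membrane protein, went from 7.59 and 7.47 to 4.58 and 4.91, and its relatives IFITM2 and IFITM3 fell by 1.28 and 1.15. IFI44L went the other way, from 5.04 and 5.01 to 6.86 and 6.88, as did IFI44 (change 1.27), TAP1 (0.73) and PSMB8 (0.39, not called without array 2 of 6 h, adjusted p = 0.139).

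Extracellular matrix genes fell in 40 of 66 cases (60.6%) and rose in 3 (4.5%), beside 15.9% lower and 27.1% higher over all genes. Their median change was -0.53. Of 23 collagens and collagen-processing genes 14 fell and none rose, and of 23 matrix glycoproteins and proteoglycans 17 fell and none rose. COL4A1, a basement membrane collagen chain, went from 9.36 and 9.24 to 7.61 and 7.62, a 3.21-fold difference (change -1.68, SE 0.08, adjusted p = 6.74e-12). COL5A1, a fibrillar collagen chain, went from 9.24 and 9.18 to 7.61 and 7.61, and SPARC, a collagen-binding glycoprotein, from 10.71 and 10.72 to 9.77 and 9.73. POSTN, periostin, had the second largest fall of all genes tested, from 8.61 and 8.64 to 4.49 and 4.19 (change -4.29, SE 0.35). MGP, matrix Gla protein, fell from 7.72 and 7.74 to 4.75 and 4.98. For TNC, tenascin C, 2 probe sets went opposite ways, with changes of -0.895 and 0.547, so its direction is uncertain. The matrix proteases included the exception: MMP1, interstitial collagenase, rose from 5.16 and 4.96 to 7.68 and 7.64 (change 2.60, SE 0.14, adjusted p = 1.17e-10), a 6.05-fold difference. The other 2 that rose, MMP3 (change 0.50) and ADAM17 (change 0.22), had adjusted p of 0.0484 and 0.0369 and were not called without array 2 or array 1 of 24 h (adjusted p = 0.339 and 0.319).

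Targets of 2 factors tied to the cytoskeleton were also examined. YAP and SRF are a co-activator and a factor that respond to actin tension. Of 29 of their targets 17 fell (58.6%, beside 15.9% of all genes) and none rose, and with quantile normalization 1 rose. ANKRD1, a YAP target, went from 10.02 and 10.01 to 7.31 and 7.24, a 6.69-fold difference (change -2.74, SE 0.07, adjusted p = 9.08e-15). CCN1, a secreted YAP target, went from 11.61 and 11.66 to 10.01 and 10.24, and F3, tissue factor, from 10.87 and 10.94 to 8.997 and 8.78. The actin-binding genes CALD1 and TPM1 fell by 1.58 and 0.99. Of 13 tubulins 4 rose (30.8%) and 2 fell (15.4%), near the shares of all genes (27.1% and 15.9%). Integrin and focal adhesion genes fell in 11 of 26 cases (42.3%) and rose in 4 (15.4%), and with median centring 15 fell and 1 rose. ITGB8, an integrin that activates TGF-beta, went from 6.34 and 6.38 to 5.04 and 4.89, and VCL, vinculin, fell by 0.50. ITGAE, ITGA5, ILK and LPP rose by 0.26 to 0.50, and ITGAE, ILK and LPP were not called with median centring. ILK and LPP were also not called without array 2 of 24 h and array 2 of 6 h (adjusted p = 0.129 and 0.208).

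Growth factor ligands and their binding proteins showed some of the deepest falls. Of 17 tested ligands and IGF-binding proteins 13 fell (76.5%) and 1 rose (5.9%), with a median change of -0.998. Of 14 receptors 3 fell (21.4%) and 3 rose (21.4%), beside 15.9% lower and 27.1% higher over all genes. FGF1, the acidic fibroblast growth factor, had the largest fall of all genes tested, from 7.834 and 7.997 to 3.24 and 2.86. Its change was -4.87 (SE 0.28, adjusted p = 1.74e-10), a 29.2-fold difference of the signal plus 3. IGFBP5, an IGF-binding protein, went from 9.92 and 9.88 to 6.93 and 6.94 (change -2.96, SE 0.07, adjusted p = 3.7e-15), and IGFBP3 from 7.94 and 7.77 to 4.74 and 4.67. IGFBP6 was the binding protein that rose (change 0.91, SE 0.20). Of the receptors, IGF1R, the IGF receptor, fell from 8.48 and 8.47 to 7.13 and 7.27, while for PDGFRA, a PDGF receptor, the brightest probe set went from 7.23 and 7.27 to 8.01 and 7.71. The 2 probe sets of PDGFRA changed by 0.611 and -0.333, and the gene was not called with their mean, so its direction is uncertain. EPHB4 and DDR2 rose by 0.67 and 0.52 but were not called without array 2 or array 1 of 6 h (adjusted p = 0.139 and 0.332). In the TGF-beta, BMP and ID list 12 of 27 fell (44.4%) and 4 rose (14.8%). INHBA, the activin A subunit, went from 6.10 and 6.07 to 3.54 and 2.25, with the 2 arrays of 24 h well apart from each other, and LTBP1, which stores latent TGF-beta in the matrix, from 8.63 and 8.67 to 6.53 and 6.54. GDF15 and TGIF1 rose by 1.08 and 0.78, and BAMBI and SMAD2 by 0.56 and 0.34, the last 2 not called without single arrays (highest adjusted p 0.0712 and 0.172).

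Chaperones of the endoplasmic reticulum were higher. Of 26 genes of the unfolded protein response, which expands folding capacity when secretory proteins misfold, 17 rose (65.4%) and 2 fell (7.7%). Over all genes 27.1% rose and 15.9% fell. The median change of the list was 0.55, and 12 of the 14 chaperones and folding enzymes rose. HSP90B1, the chaperone GRP94, went from 9.30 and 9.27 to 10.70 and 10.66, a 2.63-fold difference (change 1.39, SE 0.06, adjusted p = 2.71e-12). HYOU1, a large luminal chaperone, went from 7.30 and 7.12 to 8.56 and 8.75, and CRELD2, a secreted stress-induced protein, from 8.26 and 8.24 to 9.26 and 9.44. DDIT3, the stress factor CHOP, rose from 7.13 and 7.05 to 8.64 and 8.58 (change 1.52, SE 0.09). ATF4, a translation-controlled factor upstream of DDIT3, fell by 0.33, and PPP1R15A, a phosphatase subunit that ends the response, fell by 0.26 but was not called without array 2 of 24 h (adjusted p = 0.159).

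The ER stress element, CCAAT and CCACG with 9 bases of any kind between them, searched on both strands and overlapping the CCAAT box, was found in 5 of the 16 of these risen genes with a promoter in the table (31.2%) and in 10 of the 6545 promoters (0.153%). The 6 matches, in 5 of the 16 promoters, are shown because they are all that were found there. They were looked up after the values were known and only in members called higher, so they do not set risen members against the others. They describe the sequence and do not show that a factor was bound. Each is written on the strand that reads CCAAT first, with the fixed letters in capitals, from RefSeq, build GRCh38.p14.
HSPA5: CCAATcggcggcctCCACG
HSP90B1, distal: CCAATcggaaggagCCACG
HSP90B1, proximal: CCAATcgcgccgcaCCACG
CALR: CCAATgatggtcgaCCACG
CANX: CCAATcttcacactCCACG
CRELD2: CCAATccgagttcgCCACG
They lie 66 bases before the start of HSPA5 (chr9:125241391-125241409), 194 and 89 bases before that of HSP90B1 (chr12:103930216-103930234 and chr12:103930321-103930339), and 225 bases before that of CALR (chr19:12938384-12938402). Those of CANX (chr5:179698778-179698796) and CRELD2 (chr22:49918554-49918572) lie 151 and 80 bases before the start. HSPA5, the chaperone BiP, was already bright at 6 h, at 11.19 and 11.20, and was at 11.79 and 11.73 at 24 h. CALR, the lectin chaperone calreticulin, went from 7.77 and 7.75 to 8.77 and 8.60, and CANX, calnexin, from 10.40 and 10.34 to 10.72 and 10.76.

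Metabolic and biosynthetic lists moved less. Of 14 sterol synthesis enzymes 9 rose (64.3%, beside 27.1% of all genes) and none fell. HSD17B7 went from 6.16 and 6.24 to 7.75 and 7.76 and LSS, lanosterol synthase, from 6.98 and 7.01 to 8.19 and 7.89. INSIG1, which restrains the pathway, fell from 9.63 and 9.82 to 8.67 and 8.39. Ribosome biogenesis and MYC target genes fell in 18 of 28 cases (64.3%, beside 15.9% of all genes), with a median change of -0.48. MYC itself went from 9.32 and 9.35 to 8.74 and 8.71, and NOLC1, a nucleolar chaperone, from 9.90 and 9.91 to 9.15 and 9.09. The 3 that rose, DDX10 (change 0.29), CAD (0.39) and SRM (0.24), were not called with median centring, and CAD and SRM also not without single arrays (highest adjusted p 0.102 and 0.184). Proteasome subunits rose in 19 of 31 cases (61.3%) and 1, PSME1, fell (change -0.92, SE 0.11), but with median centring 9 rose and 5 fell. Oxidative phosphorylation genes rose in 23 of 62 cases (37.1%) and fell in 3 (4.8%). With median centring 7 rose and 12 fell, so no direction of that list is given here. AKR1C1, a detoxifying reductase of the NRF2 programme, rose from 6.23 and 6.21 to 8.15 and 8.33, and HMOX1, heme oxygenase, by 0.88. In their list 14 of 27 rose (51.9%) and 4 (ABCC3, ABCC1, TXNRD1 and NQO1) fell (14.8%). With median centring 7 genes of that list rose and 5 fell. NQO1 was not called without array 2 of 24 h (adjusted p = 0.166).

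The label of a glioblastoma line was checked against markers. VIM, CD44 and NES, which mark mesenchymal and neural stem-like glioma cells, were bright: VIM lay between 11.85 and 12.02 and CD44 between 11.44 and 11.69 on the 4 arrays. GFAP, the astrocyte filament, was dim, at 4.94 and 4.48 and then at 2.92 and 3.93, and S100B, OLIG2 and CHI3L1 did not pass the filter on low values. Several neural and glial genes moved between the times. FABP7, the radial glia fatty acid binding protein, went from 9.98 and 10.12 to 7.71 and 7.86, NES, nestin, fell by 0.63, and SOX9, a glial lineage factor, rose from 6.62 and 6.79 to 8.11 and 8.05. In all, 11 of 20 glial, mesenchymal and stem cell markers fell (55%) and 3 rose (15%), beside 15.9% and 27.1% of all genes. The other 2 that rose, PRRX1 and SOX2, were not called without array 2 of 24 h and array 2 of 6 h (changes 0.541 and 0.25). Of 10 epithelial markers 3 were tested and all 3 fell, KRT8 by 1.16, KRT18 by 0.39 and CLDN4 by 1.63, with the summed level of the list between 10.49 and 10.52 at 6 h and between 9.81 and 9.83 at 24 h, and EPCAM and CDH1 below the filter. The summed neuronal markers lay between 10.39 and 10.42 and then between 10.73 and 10.79, and NEFL, a neurofilament gene whose probe sets disagreed, alone stood at 10.26 and 10.31 and then at 10.61 and 10.66. Those of blood and vessels lay between 5.30 and 5.40 and then between 5.53 and 5.79, with PTPRC and VWF below the filter. The part of any other cell type in the changes above was not tested.

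Some measures of the arrays themselves also differed between the times. The arrays of a group correlated at 0.988 for 6 h and for 24 h. The log2 ratio of the 3' to the 5' probe set of ACTB was 0.15 and 0.19 at 6 h and 0.33 and 0.29 at 24 h and did not overlap between the times, while that of GAPDH, the other gene used to follow RNA integrity, was 0.07 and 0.01 and then 0.06 and -0.01. The mean log2 signal of the dap spike, a bacterial control RNA, was 7.09 and 7.11 at 6 h and 6.77 and 6.59 at 24 h, that of the cre spike 10.94 and 11.05 and then 11.20 and 11.12, and that of the Alu probe sets 12.42 on both arrays and then 12.48 and 12.66. None of these 3 overlapped between the times, and the spikes moved in opposite directions. The deposited array medians were 4.33 and 4.30 at 6 h and 4.47 and 4.54 at 24 h. The part of these shifts in the gene changes was not tested, apart from the scalings given above.

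By 48 h the mitotic genes stood close to their level at 24 h. This comparison shares the 24 h arrays with the one above, so the values are given side by side. For the 331 genes that rose 2-fold or more by 24 h, the median change from 6 h to 48 h was 1.20. For the 226 that fell 2-fold or more it was -1.42. The same 6 h arrays served to choose these genes, so part of both values can follow from that choice. Over all genes 1533 (19.6%) were called between 24 and 48 h, 626 (8%) higher and 907 (11.6%) lower. Of the 70 mitotic genes 17 were lower and none higher at 48 h than at 24 h, with a median change of -0.16. The unfolded protein response list turned back: 19 of its 26 genes were lower at 48 h than at 24 h, none was higher, and HYOU1 and DDIT3 changed by -1.07 and -0.98. Of 66 replication genes 19 were higher and 2 lower at 48 h, with MCM6 up by 0.61 and PCNA by 0.41. Some late falls went on, as in POSTN (-1.92) and SERPINA3, an acute phase protease inhibitor (-1.50), while CCL2 came back by 1.07.

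**Figure D4:**
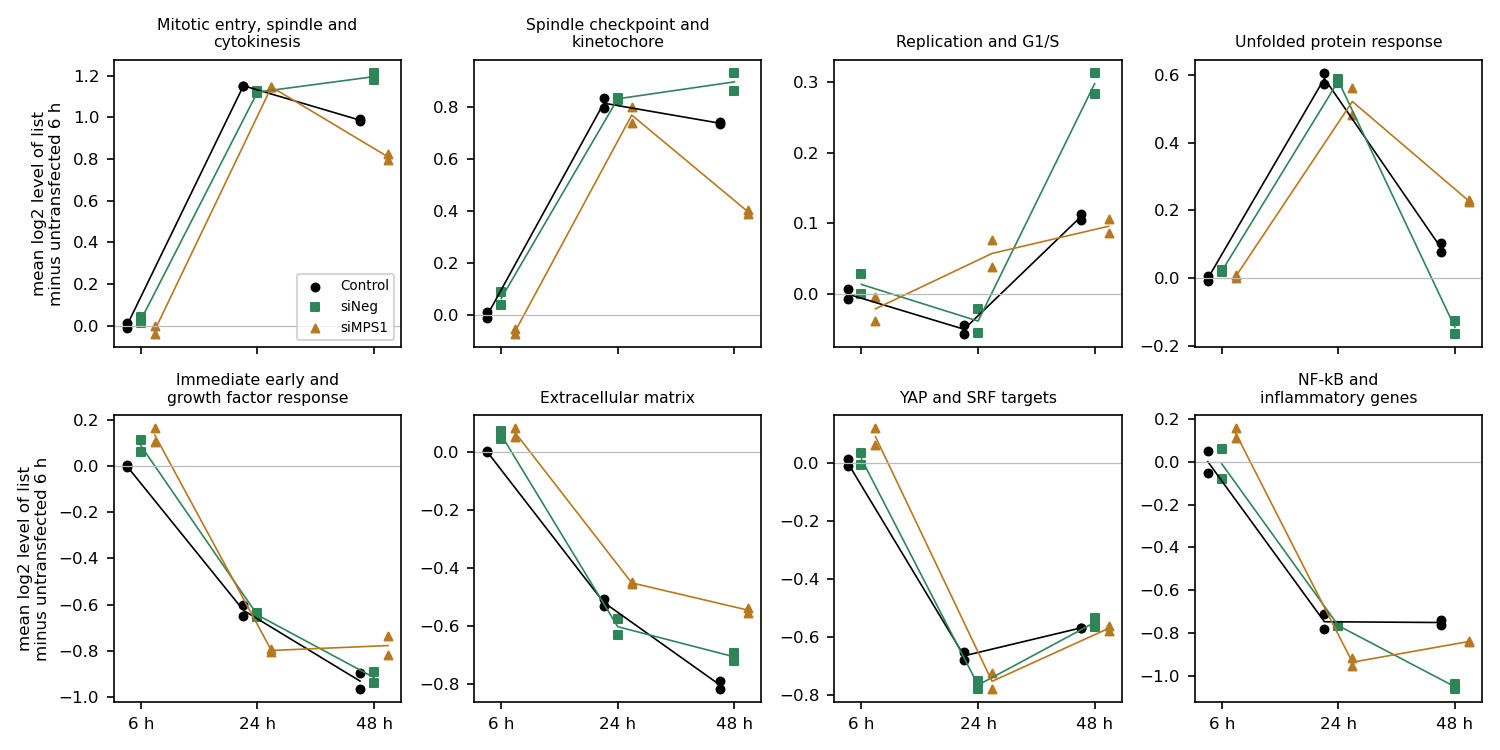
Mean log2 level of the tested members of 8 gene lists minus their mean in untransfected cells at 6 h (vertical axes, scales differ between panels) at 6, 24 and 48 h, 1 point per array, for untransfected (black circles), siNeg (green squares) and siMPS1 (brown triangles). Lines join the group means. At 24 h the mitotic list stands 1.15 higher in both untransfected arrays, 1.12 in both siNeg arrays and 1.14 and 1.15 in the siMPS1 arrays.

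The transfected cells were compared between the same times, with means from other arrays than the untransfected ones. The calls share the variance estimate, the trend and the filter of 1 fit over all arrays, so the called lists are not fully independent. In siNeg cells 44.3% of genes were called between 6 h and 24 h, 1972 (25.2%) higher and 1495 (19.1%) lower at 24 h, and in siMPS1 cells 47.4%, 2064 (26.4%) higher and 1650 (21.1%) lower. Of the 2125 genes higher in untransfected cells, 1353 were also called higher in siNeg (63.7% of the first list and 68.6% of the second), and of the 1247 lower ones 930 were also called lower (74.6% and 62.2%). Across the 7828 genes, which are not independent replicates, the 2 changes correlated at Pearson's r of 0.768 and Spearman's rho of 0.669. In siMPS1 cells the correlation was 0.681 and 0.567, with 1287 genes called higher in both (60.6% and 62.4%) and 838 called lower in both (67.2% and 50.8%). The mitotic list had 59 genes higher and 2 lower in siNeg and 60 and 2 in siMPS1, so its rise with time was measured in all 3 sets of cells. FGF1 changed by -5.56 in siNeg and by -4.09 in siMPS1, and HMMR by 3.57 and 4.55.

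The difference between the changes with time was tested gene by gene. It was called between untransfected and siNeg cells in 452 genes (5.77%), with the untransfected change above in 306 (3.91%) and below in 146 (1.87%). This count fell whichever array of untransfected or siNeg cells at 6 and 24 h was left out. Each such fit leaves 1 array in a group, which lowers the power of the test, so the count is not stable. The genes with a difference of 1 or more were mostly dim: the 59 above had a median mean log2 level of 5.56, beside 6.53 for all genes. REC8, a meiotic cohesin, had the largest difference above (2.55, adjusted p = 0.0187), but its own levels in untransfected cells overlapped, at 4.07 and 2.98 and then at 3.66 and 4.45, and the difference was not called without array 2 of untransfected 24 h (adjusted p = 0.0933). NACA4P, a pseudogene whose probes may also detect its near-identical parent gene, was bright, at 8.62 and 8.62 and then at 9.33 and 9.63. In siNeg NACA4P went from 10.18 and 10.97, which lie well apart, to 9.03 and 9.18. Its difference of 2.33 had an adjusted p of 0.000197. The other 3 above, RUNX1-IT1, GIT2 and HDAC5 (2.47, 2.22 and 2.15), were dim, with untransfected 6 h arrays at 4.05 and 2.45, at 2.62 and 4.39 and at 4.53 and 3.93, and their differences were not called without single arrays (highest adjusted p 0.0637, 0.0731 and 0.187). Below siNeg stood IMP3, a ribosomal RNA processing factor that went from 8.25 and 8.26 to 7.55 and 7.54 in untransfected cells and from a mean of 8.14 to 8.26 in siNeg, and IFNGR2, an interferon gamma receptor chain, from 7.59 and 7.53 to 6.95 and 6.60. RPL34, a ribosomal protein with many near-identical copies, GCFC2 and LRRC42 had differences of -0.855, -1.10 and -0.998, and those of GCFC2 and LRRC42 were not called without array 2 of siNeg at 6 h (adjusted p = 0.0921 and 0.102). Among described members, PMEPA1, a TGF-beta target, fell by 0.65 in untransfected cells and changed by -1.62 in siNeg (difference 0.97), and HOXC6 rose by 2.14 and changed by 1.35 (difference 0.79).

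**Figure D5:**
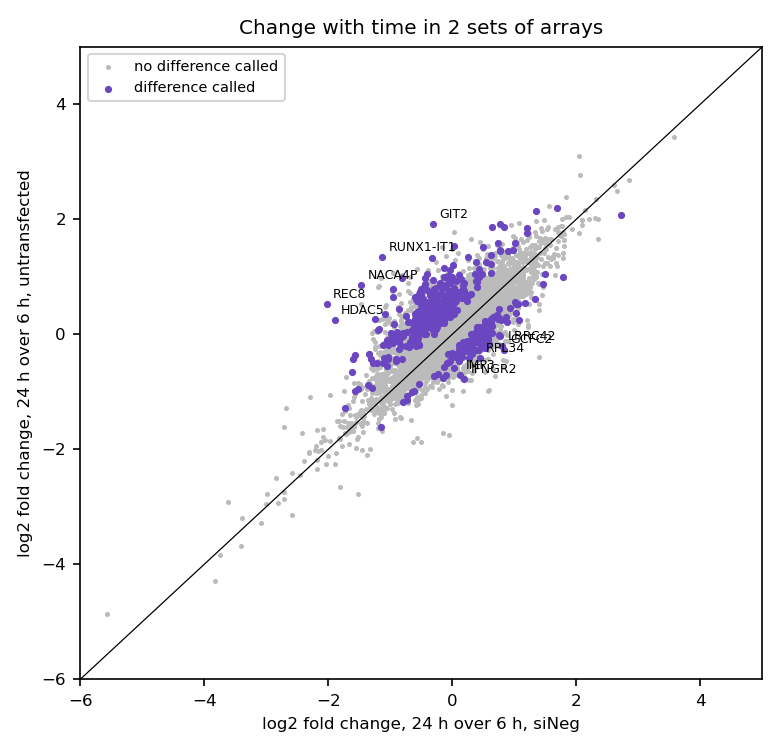
Change from 6 h to 24 h in untransfected cells (vertical axis, log2 fold change) against the same change in siNeg cells (horizontal axis), 1 point per gene for 7828 genes, with the line of equal change. Purple points are the 452 genes whose changes differed (adjusted p under 0.05), and the 10 named ones are labelled. Most points lie along the line, and REC8, RUNX1-IT1, NACA4P, GIT2 and HDAC5 lie well above it.

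Against siMPS1 cells the difference was called in 1405 genes (17.9%), with the untransfected change above in 824 (10.5%) and below in 581 (7.42%). The count was 793 without array 2 of untransfected 24 h and 899 without array 2 of siMPS1 at 6 h. In the mitotic list 7 of 70 genes were above and 12 below. CCNB2 changed by 2.03 in untransfected and by 1.24 in siMPS1 cells (difference 0.78, adjusted p = 0.000294). Of 7 genes made up of metallothioneins, which bind zinc and copper, and their regulator MTF1, 5 rose and none fell in untransfected cells. In siMPS1 cells none of them rose and 5 fell, and the untransfected change was above in 6. These changes were small, between 0.12 and 0.42 in untransfected cells (median 0.245) with a median of -0.235 in siMPS1 cells. In the whole oxidative stress and metal list, calls higher in untransfected cells went from 14 to 7 with median centring. UNG and MCM6 changed by -0.88 and -1.05 in untransfected cells and by -0.04 and -0.17 in siMPS1 cells (adjusted p of the difference 0.000272 and 0.000552). The 10 genes with the largest differences, S100A3, HOXB3, HDAC5, TOM1 and FOSB above (2.35, 2.35, 2.31, 2.15 and 2.14) and CLCN4, PCCA, DLG3, FGFR2 and TRAPPC13 below (-2.10, -1.97, -1.75, -1.31 and -1.23), were dim, and the highest mean log2 level of any of them in the groups at 6 and 24 h was 6.03, for FOSB in siMPS1 cells at 6 h. For 8 of the 10, all but S100A3 and CLCN4, the difference was not called without 1 or more of the single arrays (highest adjusted p 0.166, for DLG3). With the mean of its 3 probe sets the difference of DLG3 turned to 0.3507 (adjusted p = 0.557), so its direction is uncertain.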

How the data were processed

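Total RNA of U251 cells was measured on 18 one-colour arrays, 2 per group. The authors deposited 1 log value per probe set and array; the submitters' processing notes name MAS5, without a version. The deposited values were taken as log2 because the 2% trimmed mean of the linear signals was then about equal on all arrays. The number of arrays limits the precision.

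Before log2, 3 was added to each linear signal, its 20th percentile, so a fold change understates the change of dim genes. The dimmest 40% of probe sets by mean over 18 arrays were left out, and the brightest probe set with 1 gene symbol stood for a gene, which gave 7828 genes. Of 22277 probe sets, 19064 had 1 gene, 1043 several and 2108 none, and 62 were array controls. All arrays entered 1 limma 3.58.1 fit (R 4.3.3) with 9 group means and an intensity trend, tested on both sides with Benjamini-Hochberg adjustment. In the comparison of 24 h with 6 h on simulated data, 90 of 100 genes changed by 1 log2 unit were recovered. Of 100 changed by 0.5, 52 were recovered, with 9 false calls among the unchanged genes of the 7828. The simulated noise was normal, and far fewer genes were changed than the 43.1% called in the real data.

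The genes named were TTK, the 20 largest rises and 20 largest falls whose arrays did not overlap, up to 8 called members of each described list with the smallest p, members called against a list's direction, and the 5 largest differences each way from siNeg and siMPS1. Other genes given with values, such as markers, HSPA5, CALR, CANX and further list members, were chosen after their values were seen. The comparison and the gene lists were chosen with earlier results of these data known. Alternatives were other scalings, filters, probe set rules, no intensity trend, a fold threshold, a replicate block and leaving out each array.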

Additional observations from a re-analysis of the deposited data

Results flagged for a closer look

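The changes from 6 h to 24 h differed between untransfected and siNeg cells in 452 genes and between untransfected and siMPS1 cells in 1405 genes, by a test of the difference itself (limma, adjusted p under 0.05). The values below are log2 differences, the untransfected change minus the other one. Against siNeg, the untransfected change was the higher one in CENPF (0.518), HOXC6 (0.794), REC8 (2.55), RUNX1-IT1 (2.47), NACA4P (2.33), GIT2 (2.22), HDAC5 (2.15), ORC6 (0.533), ETV5 (0.578), TNFAIP2 (0.721), HYOU1 (0.545), PPP1R15A (0.602), LSS (0.673), COL4A2 (0.365), ITGA5 (0.778), PMEPA1 (0.972), CAD (0.915), IGF1R (0.456) and SOX2 (0.732). It was the lower one in NEK2 (-0.651), GCFC2 (-1.1), LRRC42 (-0.998), IFNGR2 (-0.981), RPL34 (-0.855), IMP3 (-0.828), TPM1 (-0.374), PSMD10 (-0.597) and IGFBP7 (-0.341). Against siMPS1, it was the higher one in S100A3 (2.35), HOXB3 (2.35), HDAC5 (2.31), TOM1 (2.15) and FOSB (2.14). It was the lower one in CLCN4 (-2.1), PCCA (-1.97), DLG3 (-1.75), FGFR2 (-1.31) and TRAPPC13 (-1.23). With 2 arrays per group, no single array could be tested as an outlier.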

How the results depend on the processing

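Median centring turned the split of calls to 1302 higher and 1923 lower. A 2-fold minimum left 557 calls, 331 higher and 226 lower. Leaving out single arrays gave 2635 to 2758 calls, 1629 to 1695 higher and 997 to 1066 lower. The count of differences from siNeg was 1303 with median centring, 705 over probe sets in place of genes, 218 without the intensity trend, 60 with the 2-fold minimum and 144 to 241 without single arrays. For siMPS1 it was 2204 with median centring, 217 with the 2-fold minimum and 793 to 1274 without single arrays. Arrays with the same number at 6 and 24 h did not deviate together (correlation -0.00715), and a replicate block gave 3384 calls. Of 252 named genes 22 lost the call with median centring and 10 with quantile normalization. Signs reversed in 5 dim genes not called between 6 and 24 h: leaving out single arrays gave changes of -0.4014 to 0.06569 for DLG3, -0.1103 to 0.616 for HDAC5, -0.5887 to 0.2504 for CLCN4 (3.862e-05 without array 2 of 6 h), -0.02037 to 1.074 for REC8 and -0.4585 to 0.04621 for PCCA, with HDAC5 at -0.04427 without array 2 of 6 h. With the mean of its probe sets DLG3 changed by 1.02, now called, and its difference from siMPS1 turned to 0.3507. The causes were not tested. Dim genes lie near the floor of the scale, and 2 arrays per group limit every estimate.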
